A study of Homo sapiens with 10 samples.

Results

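The 39 genes described here encode the enzymes and carriers of glycolysis together with the subunits, regulators and induced genes of the hypoxia-inducible factors, and they were taken by symbol from a deposited expression table of 58735 genes. All 39 were in the table. The cells were TPC-1, a human line of papillary thyroid carcinoma, and all 5 groups, with 2 RNA-seq libraries per group, carried its CCDC6-RET fusion. The parental cells were exposed to 5 µM BLU667 for 24 h (BLU667, also known as pralsetinib, inhibits the RET kinase), or the solvent DMSO for 24 h. BR8, BR10 and BR16 are 3 adapted colonies, derived from TPC-1 cells under 5 µM BLU667, for more than 50 days according to the sample labels and more than 5 months according to the series design. Each adapted colony is a single derived culture, so its 2 libraries measure that colony and not adaptation at large. The series design calls the libraries biological replicates but does not say that they came from separate cultures, and p-values therefore measure the spread between these libraries.

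Glycolysis splits glucose into pyruvate, and many tumour cells, thyroid carcinoma among them, run it fast and export lactate even when oxygen is present. The hypoxia-inducible factors HIF-1 and HIF-2 pair an oxygen-sensitive alpha subunit (HIF1A or EPAS1) with ARNT. They bind DNA at the hypoxia response element, whose core often reads ACGTG. With oxygen, prolyl hydroxylases of the EGLN family mark the alpha subunits for destruction, so HIF activity is set largely by protein stability, which RNA levels do not show. Most glycolytic enzymes are textbook HIF-1 targets, and growth factor signalling through receptor kinases also feeds into their expression.

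Libraries held 15243703 to 21904245 reads in genes. Mitochondrial reads made up 4.44% to 6.49% of BLU667 libraries, 3.23% to 3.64% in BR8, 3.42% to 3.56% in BR10, 5.31% to 5.52% in BR16 and 4.65% to 5.33% in DMSO. Differences between libraries also tracked transcript GC content. Across genes, Spearman's rho with GC was 0.619 for DMSO replicate 1 minus replicate 2, -0.286 for BR8 against DMSO and 0.259 for BR16 against DMSO. The tested members had a median GC content of 52.75%, against 47.4% over all genes tested. Of the thyroid markers, PAX8 was present at 35.3 to 94.7 FPKM (fragments per kilobase of gene, scaled to library depth) and FOXE1 at 2.04 to 4.17 FPKM, while TG, NKX2-1, TSHR and SLC5A5 were at 0.230 FPKM or less in every library. The summed level of 6 epithelial markers was 28.4 to 28.8 FPKM in BLU667, 47.3 to 53 in BR8, 46.2 to 49.2 in BR10, 98.4 to 111 in BR16 and 49.3 to 63.3 in DMSO. Most of it was KRT8 and KRT18, and EPCAM and CDH1 did not exceed 0.196 FPKM in any library. Immune, endothelial and erythroid marker lists had no gene past the expression filter. Of 5 fibroblast markers, COL1A1 and LUM passed it and DCN was at 0 in every library. Their summed level was 1.46 to 2.22 FPKM in BLU667, 5.53 to 7.29 in BR8, 0.534 to 0.590 in BR10, 2.06 to 2.36 in BR16 and 0.380 to 0.544 in DMSO, and whether these differences in epithelial and fibroblast markers bear on the results below was not tested.

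Parental cells given BLU667 for 24 h held less RNA of most members than DMSO cells, and the adapted colonies stood in between for many of them. A gene was tested where it reached 1 FPKM in at least 2 libraries, which 13927 genes and 35 of the 39 members did. Below, a log2 change is that of FPKM + 1 with its standard error (SE) from limma, a linear model fitted over all tested genes, and a gene is called at a Benjamini-Hochberg adjusted p below 0.05. In BLU667 against DMSO, 6 members were called higher and 25 lower, with a median log2 change of -0.92, while 29% of all tested genes were called higher and 31.2% lower, with a median of -0.01. In the adapted colonies against DMSO, 6 members were higher and 23 lower (median -0.50), against 22.9% higher and 26.3% lower over all genes. The adapted colonies against BLU667 had 21 members higher and 8 lower (median 0.33), against 32.4% higher and 28.7% lower over all genes. These comparisons share libraries, so their values are not independent of each other. Bulk RNA cannot tell fewer cells of a kind from less RNA per cell.

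**Figure D1:**
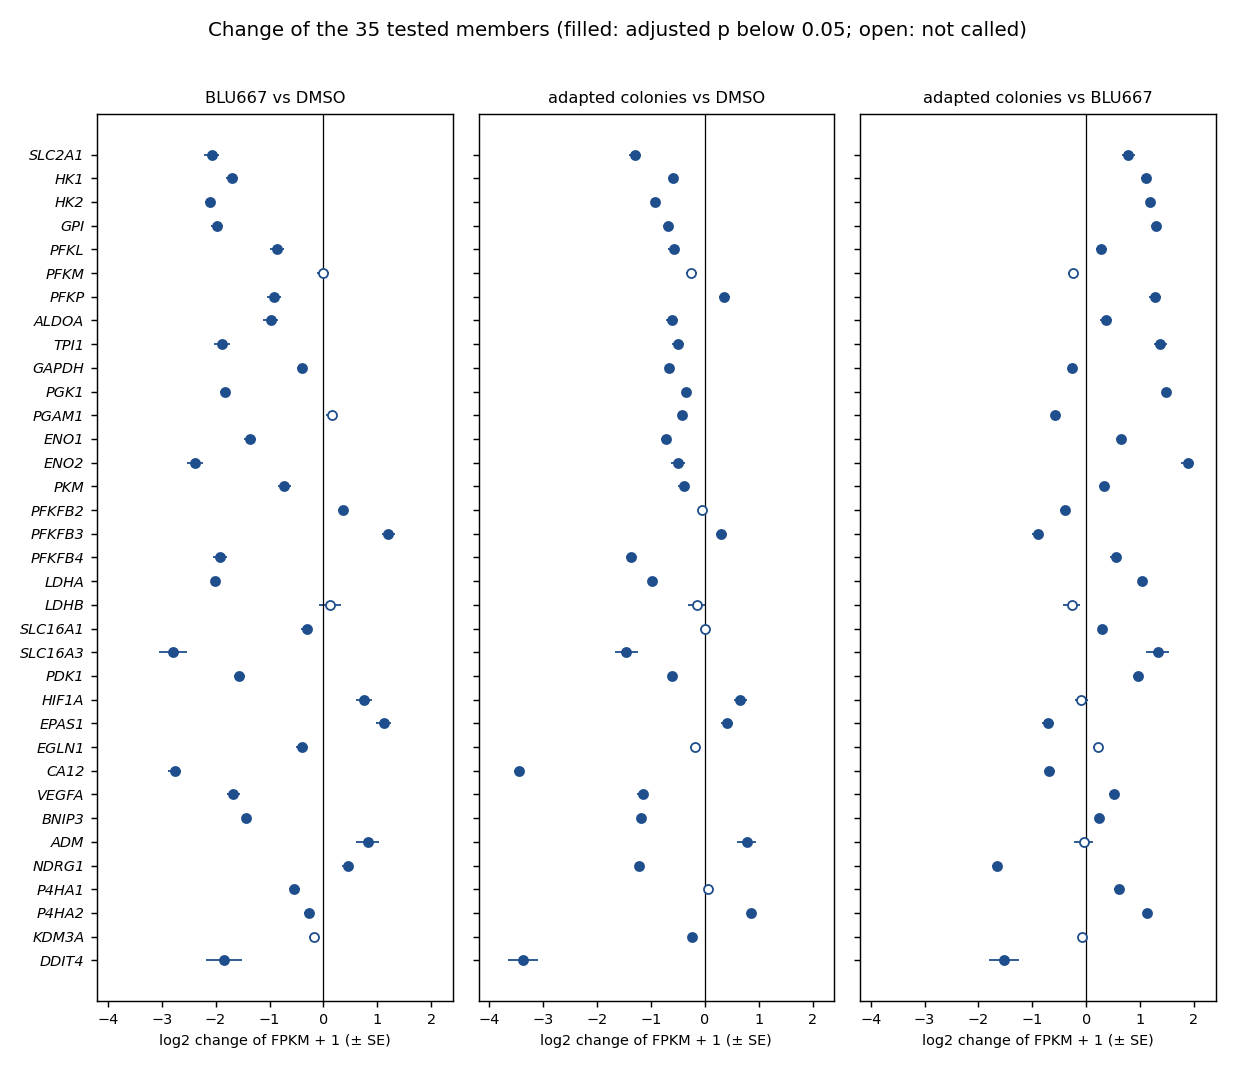
Log2 change of FPKM + 1 (± SE, horizontal axis) of the 35 tested members in BLU667 against DMSO (left), in the adapted colonies against DMSO (middle) and in the adapted colonies against BLU667 (right). Filled points are called at an adjusted p below 0.05. In the left panel 25 members are called left of 0 and 6 right of it, and in the right panel 21 are called right of 0 and 8 left of it.

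In 13 members every adapted library lay between the BLU667 libraries, which were lowest, and the DMSO libraries. These were SLC2A1, HK1, HK2, GPI, TPI1, PGK1, ENO1, PKM, PFKFB4, LDHA, PDK1, VEGFA and BNIP3. In GAPDH, PGAM1 and NDRG1 every adapted library lay below both parental groups, and in PFKP and P4HA2 every adapted library lay above both. How many of all tested genes showed such orders was not counted, so these counts cannot be set against a share over all genes. With the means of the 3 colonies as replicates in place of the 6 libraries, 0 members were called higher and 10 lower against DMSO, where 818 of all 13927 genes were called higher and 722 lower. Those 10 were SLC2A1, GAPDH, ENO1, PFKFB4, LDHA, CA12, VEGFA, BNIP3, NDRG1 and DDIT4. Against BLU667, 14 members were then higher and 3 lower, against 1977 and 1679 of all genes.

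Promoters of some of these genes are printed because many members fell together under BLU667, and the windows can be searched for ACGTG. Other forms of the core that HIF binds, GCGTG among them, were not searched, so a window without a match may still hold those. The windows are the 250 bases upstream of RefSeq transcription starts (GRCh38.p14), which 35 of the 39 members had, some with several starts. ACGTG or its reverse complement CACGT was searched on both strands, so that the palindrome CACGTG counts once on each strand, and it occurred in 23 of 63 member windows (36.5%) and in 6501 of 35116 windows of all genes (18.5%). Counted by gene, with a match in any window, these were 20 of 35 members (57.1%) and 5935 of 27305 genes (21.7%). Of the 23 members called lower in BLU667 that had a window, 15 held a match. Of the 4 called higher 1 did, and of the 4 tested but not called 1 did, and of the 4 not tested 3 did. SLC2A1, HK1, PFKL, ENO1, PKM, PFKFB4, CA12 and P4HA2 were called lower and held no match. The LDHA window with 5 matches lies at chr11:18394313-18394562 (plus strand), while its other window, at chr11:18396101-18396350 (plus strand), has 0. The PGK1 window, with 2, lies at chrX:78103998-78104247 (plus strand), and that of BNIP3, with 2, at chr10:131981924-131982173 (minus strand). SLC2A1 has 0 at chr1:42958869-42959118 (minus strand). These genes were all called lower in BLU667. PFKFB3, called higher, has 2 matches in the window at chr10:6202682-6202931 (plus strand) and 0 in its other one, and PGAM1, not called, has 0 at chr10:97427568-97427817 (plus strand). The sequences run 5′ to 3′ on each gene's own strand, with matches in capitals. A match describes letters only and shows no binding.
LDHA: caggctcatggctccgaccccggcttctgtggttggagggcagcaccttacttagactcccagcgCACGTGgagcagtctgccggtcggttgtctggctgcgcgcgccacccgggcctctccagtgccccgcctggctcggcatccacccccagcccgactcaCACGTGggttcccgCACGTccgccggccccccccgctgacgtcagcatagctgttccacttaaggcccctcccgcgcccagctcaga
PGK1: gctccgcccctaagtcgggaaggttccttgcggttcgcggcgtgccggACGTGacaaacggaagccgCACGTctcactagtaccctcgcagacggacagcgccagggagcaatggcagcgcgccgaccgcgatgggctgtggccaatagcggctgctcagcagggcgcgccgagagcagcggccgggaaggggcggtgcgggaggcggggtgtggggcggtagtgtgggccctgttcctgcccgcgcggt
BNIP3: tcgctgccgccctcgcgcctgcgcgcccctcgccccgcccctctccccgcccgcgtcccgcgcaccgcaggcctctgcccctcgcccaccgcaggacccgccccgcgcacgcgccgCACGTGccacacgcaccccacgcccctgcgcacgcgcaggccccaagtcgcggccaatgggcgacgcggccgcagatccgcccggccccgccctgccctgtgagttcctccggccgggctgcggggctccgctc
SLC2A1: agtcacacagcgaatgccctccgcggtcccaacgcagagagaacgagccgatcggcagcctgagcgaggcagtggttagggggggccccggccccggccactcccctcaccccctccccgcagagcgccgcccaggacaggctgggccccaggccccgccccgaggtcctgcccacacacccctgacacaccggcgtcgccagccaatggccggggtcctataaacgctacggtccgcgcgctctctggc
PFKFB3: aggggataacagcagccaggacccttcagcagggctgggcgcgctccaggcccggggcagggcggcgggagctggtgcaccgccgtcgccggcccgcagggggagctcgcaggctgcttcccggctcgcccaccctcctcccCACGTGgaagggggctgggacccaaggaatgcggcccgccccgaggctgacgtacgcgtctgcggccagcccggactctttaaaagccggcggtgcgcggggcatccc
PGAM1: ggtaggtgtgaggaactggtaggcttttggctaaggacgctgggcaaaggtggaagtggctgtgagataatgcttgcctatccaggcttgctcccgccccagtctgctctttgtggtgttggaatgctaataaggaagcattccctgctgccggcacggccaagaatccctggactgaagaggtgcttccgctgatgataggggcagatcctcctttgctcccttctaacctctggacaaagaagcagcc

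The glucose carrier and both hexokinases fell in BLU667, and in the adapted colonies all of them were lower than in DMSO and higher than in BLU667. SLC2A1 encodes GLUT1, the glucose carrier of most cells (ENSG00000117394, GRCh38 chromosome 1, 42925375 to 42959176, minus strand). It was at 11.4 and 15 FPKM in BLU667, 19.7 and 17.1 in BR8, 24.9 and 27.4 in BR10, 26.2 and 26.4 in BR16, and 63.5 and 53.5 in DMSO. All adapted libraries lay above the BLU667 pair and below the DMSO pair. Its log2 change was -2.07 ± 0.14, adjusted p = 6.09e-06 in BLU667 against DMSO, -1.29 ± 0.11, adjusted p = 4.5e-05 in the adapted colonies against DMSO and 0.78 ± 0.11, adjusted p = 0.000459 against BLU667. HK2, the inducible hexokinase that traps glucose as glucose 6-phosphate (ENSG00000159399, GRCh38 chromosome 2, 74833981 to 74893359, plus strand), was at 7.21 and 6.02 FPKM in BLU667, 11.5 and 11.2 in BR8, 17.7 and 19.7 in BR10, 19.6 and 20.2 in BR16, and 32.6 and 30.8 in DMSO. It was the most reduced of the 3 genes in BLU667 (-2.11 ± 0.10, adjusted p = 7.11e-07), and stood 1.9-fold lower in the adapted mean than in the DMSO mean (-0.93 ± 0.08, adjusted p = 3.48e-05). Among the colonies, BR8 had the lowest HK2. HK1, the hexokinase present in most tissues, was at 10.7 and 11.8 FPKM in BLU667, 20.6 and 21.8 in BR8, 26.5 and 27.6 in BR10, 29.7 and 28.1 in BR16, and 43.6 and 34.4 in DMSO. Its change was -1.70 ± 0.11, adjusted p = 5.68e-06 in BLU667 and -0.58 ± 0.09, adjusted p = 0.00112 in the adapted colonies against DMSO. HK2 exceeded HK1 per length in no library, and its share of their summed FPKM was 33.8% to 40.3% in BLU667, 34.0% to 35.8% in BR8, 40.0% to 41.7% in BR10, 39.7% to 41.8% in BR16 and 42.7% to 47.2% in DMSO.

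**Figure D2:**
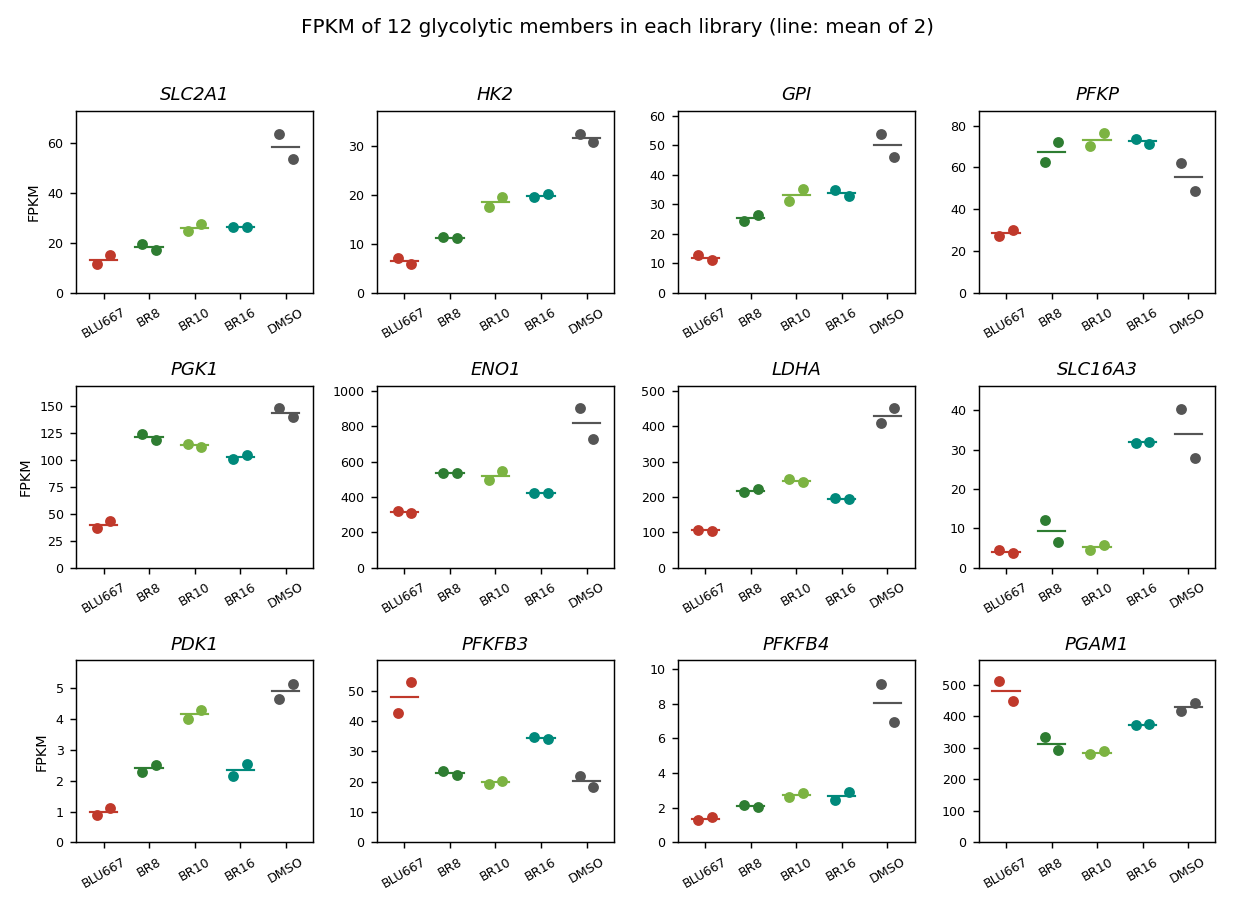
FPKM of 12 members of glycolysis and lactate handling (vertical axis, each panel from 0 on its own scale) in each of the 10 libraries by group. Points are libraries and lines are means of 2. DMSO is highest for SLC2A1, HK2, GPI, PGK1, ENO1, LDHA, PDK1 and PFKFB4, PFKFB3 is highest in BLU667, and SLC16A3 is at 31.6 and 32 FPKM in BR16 alone among the colonies.

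Of the 7 members of upper glycolysis, 6 were tested; 5 fell in BLU667 and 0 rose. GPI, which turns glucose 6-phosphate into fructose 6-phosphate, was at 12.8 and 11.1 FPKM in BLU667, 24.3 and 26.6 in BR8, 31.1 and 35.4 in BR10, 34.9 and 33 in BR16, and 53.9 and 46.1 in DMSO. BLU667, the adapted libraries as a whole and DMSO did not overlap, and its changes were -1.98 ± 0.11, adjusted p = 2.34e-06 in BLU667, -0.69 ± 0.09, adjusted p = 0.000438 in the adapted colonies against DMSO and 1.29 ± 0.09, adjusted p = 8.15e-06 against BLU667. TPI1 interconverts the 3-carbon sugars made by aldolase. It was at 55.6 and 61.7 FPKM in BLU667, 129 and 146 in BR8, 157 and 176 in BR10, 158 and 161 in BR16, and 254 and 187 in DMSO. The fall in BLU667 was -1.88 ± 0.15, adjusted p = 1.36e-05, and the smaller one in the adapted colonies (-0.50 ± 0.12, adjusted p = 0.00898) was not called without DMSO replicate 1 (-0.28, adjusted p = 0.0585). PFKP, the platelet form of phosphofructokinase, which catalyses the committed step, moved otherwise. It was at 27.3 and 30.1 FPKM in BLU667, 62.4 and 72.1 in BR8, 70.0 and 76.6 in BR10, 73.7 and 71.3 in BR16, and 62.3 and 48.6 in DMSO. BLU667 libraries were lowest and all 6 adapted libraries were above the DMSO pair, by a narrow margin at the nearest, 62.4 FPKM in BR8 and 62.3 FPKM in DMSO. Its change was -0.92 ± 0.13, adjusted p = 0.000389 in BLU667 and 1.28 ± 0.10, adjusted p = 1.89e-05 in the adapted colonies against BLU667. Against DMSO the adapted colonies were higher by 0.36 ± 0.10, adjusted p = 0.0213, a call lost without DMSO replicate 2 (0.18, adjusted p = 0.165).

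The liver form PFKL fell in BLU667 (-0.86 ± 0.13, adjusted p = 0.000548) and in the adapted colonies against DMSO (-0.58 ± 0.10, adjusted p = 0.00228), although the adapted libraries (8.65 to 15.3 FPKM) overlapped DMSO (15.2 to 20.2 FPKM). The muscle form PFKM was called in neither (-0.01 ± 0.12, adjusted p = 0.963 in BLU667, -0.25 ± 0.10, adjusted p = 0.0614 in the adapted colonies). The second was called lower with the GC trend removed (-0.30, adjusted p = 0.0105) and with only the groups compared (adjusted p = 0.024). It was also called with voom (adjusted p = 0.039), with a minimum of 5 FPKM (adjusted p = 0.0483) and without either BLU667 library (-0.25). Within the summed FPKM of PFKL, PFKM and PFKP, the share of PFKP was 58.8% and 57.3% in BLU667, 78.2% and 80.7% in BR8, 76.8% and 77.1% in BR10, 75.1% and 74.1% in BR16, and 65.7% and 65.1% in DMSO. The phosphofructokinase mix of the colonies thus lay on the far side of DMSO from that of BLU667. ALDOA, the main aldolase of most tissues, was listed at only 0.464 and 0.220 FPKM in BLU667, 0.581 and 0.424 in BR8, 0.395 and 0.507 in BR10, 1.32 and 1.4 in BR16, and 1.76 and 1.5 in DMSO. With 53.5% of its exon bases shared with AC093512.2 in GENCODE 29 and libraries that do not record strand, its level is uncertain. Its fall in BLU667 was -0.98 ± 0.14, adjusted p = 0.00046. ALDOC, the brain form, did not pass the filter, at 0.0194 to 0.368 FPKM.

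In lower glycolysis, where the pathway yields ATP, 5 of 6 members fell in BLU667 and all 6 were lower in the adapted colonies than in DMSO. ENO2, the neuronal enolase gene, which is also a HIF target, was at 1.92 and 2.26 FPKM in BLU667, 6.83 and 7.43 in BR8, 12 and 12.3 in BR10, 13 and 12.6 in BR16, and 18.4 and 12.4 in DMSO. It fell most of the 6 in BLU667 (-2.38 ± 0.15, adjusted p = 5.05e-06). The adapted colonies were 5.11-fold above BLU667 (1.88 ± 0.13, adjusted p = 6.34e-06) and overlapped DMSO, with a change of -0.50 ± 0.13, adjusted p = 0.0115 that was lost without DMSO replicate 1 (-0.23, adjusted p = 0.0533). PGK1, phosphoglycerate kinase, makes the first ATP of the pathway (ENSG00000102144, GRCh38 chromosome X, 77910739 to 78129296, plus strand). It was at 36.9 and 43.2 FPKM in BLU667, 125 and 119 in BR8, 115 and 113 in BR10, 101 and 105 in BR16, and 148 and 140.4 in DMSO. Its level in BLU667 was 3.6-fold lower than in DMSO (-1.83 ± 0.09, adjusted p = 1.18e-06), and that of the adapted colonies was 2.82-fold above BLU667 (1.47 ± 0.07, adjusted p = 1.36e-06) but still below DMSO (-0.35 ± 0.07, adjusted p = 0.00468). ENO1, the common enolase, was at 318 and 308 FPKM in BLU667, 533 and 537 in BR8, 493 and 545 in BR10, 425 and 420.0 in BR16, and 905 and 725 in DMSO. The change was -1.37 ± 0.11, adjusted p = 1.86e-05 in BLU667 and -0.73 ± 0.09, adjusted p = 0.000341 in the adapted colonies against DMSO, and BLU667, the adapted libraries as a whole and DMSO did not overlap. PKM, pyruvate kinase, was at 243 and 263 FPKM in BLU667, 329 and 355 in BR8, 288 and 321 in BR10, 313 and 307 in BR16, and 468 and 374 in DMSO. It changed less, by -0.72 ± 0.12, adjusted p = 0.000975 in BLU667 and -0.39 ± 0.10, adjusted p = 0.0106 in the adapted colonies against DMSO, the second of which was not called without DMSO replicate 1 (-0.23, adjusted p = 0.0713).

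GAPDH and PGAM1 departed from that order. GAPDH, often used as a control gene, was at 832 and 833 FPKM in BLU667, 693 and 698 in BR8, 680.3 and 746 in BR10, 670.4 and 667 in BR16, and 1144 and 1064 in DMSO. Levels in every adapted library were below those in both parental groups, with changes of -0.41 ± 0.08, adjusted p = 0.00335 in BLU667, -0.67 ± 0.07, adjusted p = 0.000106 in the adapted colonies against DMSO and -0.27 ± 0.07, adjusted p = 0.00978 against BLU667. The first of these was not called with only the BLU667 and DMSO libraries in the fit (-0.41, adjusted p = 0.114) or without a filter (adjusted p = 0.0944). The last was not called with quantile normalization (-0.06, adjusted p = 0.376), without a filter (adjusted p = 0.163) or with colony means as replicates (adjusted p = 0.194). PGAM1, phosphoglycerate mutase, was at 514 and 448 FPKM in BLU667, 335 and 293 in BR8, 279.9 and 291 in BR10, 373 and 375 in BR16, and 419 and 443 in DMSO. It was not called in BLU667 (0.16 ± 0.10, adjusted p = 0.214) and was lower in the adapted colonies than in DMSO (-0.42 ± 0.08, adjusted p = 0.00354) and than in BLU667 (-0.57 ± 0.08, adjusted p = 0.000435). Several glycolytic genes, GAPDH and PGAM1 among them, have near-identical processed pseudogenes, and the sources used here do not say how reads shared with these were counted.

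The PFKFB genes encode bifunctional enzymes that make and break fructose 2,6-bisphosphate, the strongest activator of phosphofructokinase, and the members of this family moved in opposite directions. PFKFB3, the form with high kinase activity, was at 42.8 and 52.8 FPKM in BLU667, 23.5 and 22.3 in BR8, 19.3 and 20.3 in BR10, 34.7 and 34.3 in BR16, and 22 and 18.3 in DMSO. BLU667 was highest, 2.38-fold above DMSO (1.21 ± 0.12, adjusted p = 5.09e-05). The adapted colonies were lower than BLU667 (-0.90 ± 0.10, adjusted p = 8.52e-05) and, on average, above DMSO (0.31 ± 0.10, adjusted p = 0.0296), a call lost without DMSO replicate 2 (0.18, adjusted p = 0.209), and without BR8 replicate 1, BR10 replicate 2 or either BR16 library (adjusted p = 0.0575 to 0.0609). Of the colonies, BR16 had the highest PFKFB3. PFKFB4 was at 1.32 and 1.44 FPKM in BLU667, 2.17 and 2.06 in BR8, 2.59 and 2.85 in BR10, 2.44 and 2.89 in BR16, and 9.15 and 6.94 in DMSO. It fell 5.82-fold in BLU667 (-1.91 ± 0.13, adjusted p = 5.54e-06) and was 3.22-fold lower in the adapted colonies than in DMSO (-1.36 ± 0.10, adjusted p = 1.96e-05). PFKFB2, the heart form, was at 2.49 and 2.58 FPKM in BLU667, 2.1 and 1.88 in BR8, 1.65 and 1.41 in BR10, 1.55 and 1.51 in BR16, and 1.77 and 1.74 in DMSO. Its rise in BLU667 was 0.36 ± 0.09, adjusted p = 0.0105, and it was not called without BLU667 replicate 2 (0.34, adjusted p = 0.056). As a share of the summed FPKM of the family, PFKFB3 was 91.8% and 92.9% in BLU667, 84.6% and 85.0% in BR8, 82.0% and 82.7% in BR10, 89.7% and 88.6% in BR16, and 66.8% and 67.8% in DMSO. All drug-exposed libraries lay above both DMSO libraries in this share.

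**Figure D3:**
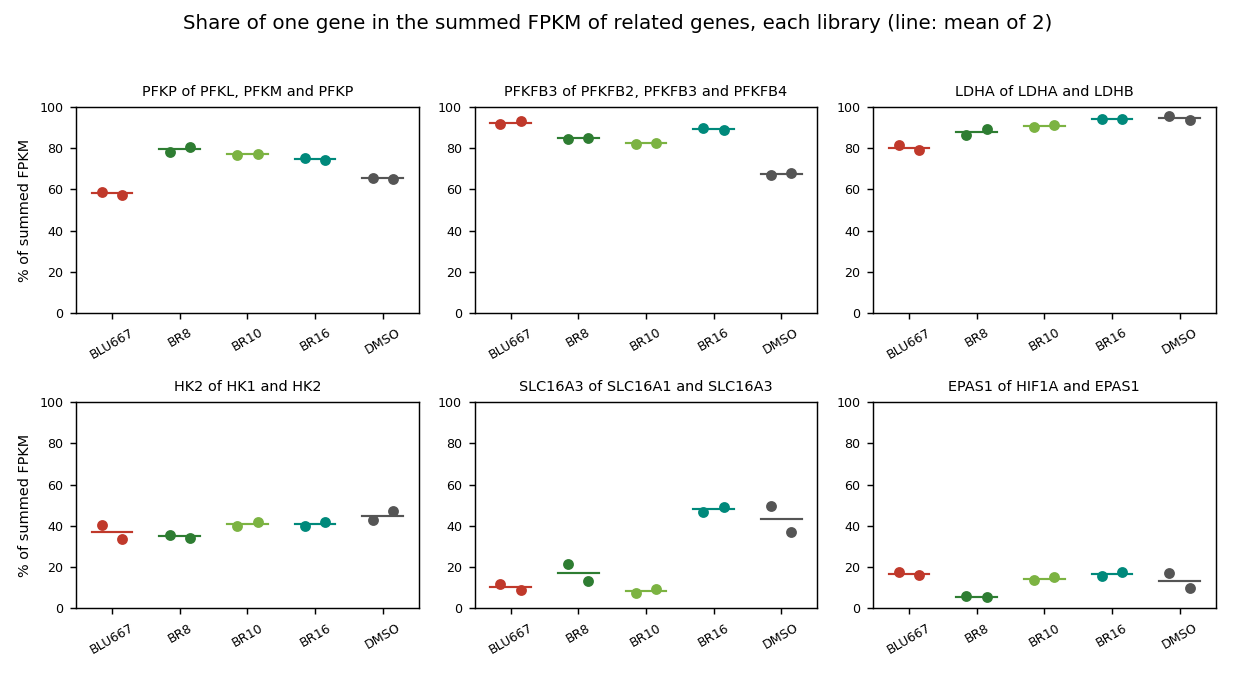
Share of one gene in the summed FPKM of related genes (vertical axis, percent, 0 to 100) in each library by group, with lines at the mean of 2. The PFKP share is 57.3% to 58.8% in BLU667, 74.1% to 80.7% in the adapted colonies and 65.1% to 65.7% in DMSO, and the PFKFB3 share is lowest in DMSO.

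At the branch from pyruvate to lactate, 4 of 5 members fell in BLU667. LDHA, the lactate dehydrogenase subunit that dominates in most tumours (ENSG00000134333, GRCh38 chromosome 11, 18394388 to 18408425, plus strand), was at 108 and 104 FPKM in BLU667, 214 and 223 in BR8, 250.4 and 241 in BR10, 197 and 194 in BR16, and 410.2 and 451 in DMSO. Its level in BLU667 was 4.07-fold below DMSO (-2.01 ± 0.08, adjusted p = 3.64e-07) and that of the adapted colonies 1.96-fold below DMSO (-0.97 ± 0.06, adjusted p = 9.59e-06), with no overlap between any of the 5 groups. LDHB, the heart subunit, was called in neither comparison with DMSO (0.12 ± 0.20, adjusted p = 0.616 in BLU667, -0.15 ± 0.16, adjusted p = 0.491 in the adapted colonies), and 33.42% of its exon bases are shared with AC010197.2. Leaving out DMSO replicate 2 called it higher in BLU667 (0.46, adjusted p = 0.0248), and leaving out DMSO replicate 1 called it lower in the adapted colonies (-0.48, adjusted p = 0.0173). The LDHA share of their summed FPKM was 81.4% and 79.1% in BLU667, 86.5% and 89.2% in BR8, 90.2% and 90.9% in BR10, 93.9% and 93.9% in BR16, and 95.6% and 93.7% in DMSO.

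SLC16A3 encodes MCT4, the lactate exporter of glycolytic cells and a HIF-1 target. It was at 4.38 and 3.62 FPKM in BLU667, 12 and 6.41 in BR8, 4.49 and 5.8 in BR10, 31.6 and 32 in BR16, and 40.2 and 27.8 in DMSO. BLU667 lay 8.5-fold below DMSO (-2.79 ± 0.26, adjusted p = 4.11e-05), BR8 and BR10 were low as well, and BR16 overlapped DMSO. BR10 differed from DMSO by -2.50 ± 0.26, adjusted p = 0.000227 and BR16 by -0.07 ± 0.26, adjusted p = 0.851. SLC16A1, which encodes the carrier MCT1, was at 33.2 and 37.5 FPKM in BLU667, 44 and 42.5 in BR8, 55.6 and 56.5 in BR10, 35.9 and 33.2 in BR16, and 40.4 and 47.7 in DMSO. In BLU667 it was slightly lower than in DMSO (-0.31 ± 0.10, adjusted p = 0.0282), a call lost without DMSO replicate 2 (-0.19, adjusted p = 0.115) or BLU667 replicate 1 (-0.22, adjusted p = 0.161), and under several other settings, among them quantile normalization (-0.13, adjusted p = 0.312). PDK1, the kinase that shuts pyruvate out of the citric acid cycle, was at 0.886 and 1.11 FPKM in BLU667, 2.29 and 2.51 in BR8, 4.02 and 4.29 in BR10, 2.16 and 2.53 in BR16, and 4.64 and 5.15 in DMSO. Its changes were -1.56 ± 0.10, adjusted p = 5.45e-06 in BLU667, -0.60 ± 0.08, adjusted p = 0.000582 in the adapted colonies against DMSO and 0.96 ± 0.08, adjusted p = 2.68e-05 against BLU667, and BR10 was the colony nearest to DMSO.

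Both alpha subunits of the hypoxia-inducible factors were called higher in BLU667 than in DMSO, and in the adapted colonies HIF1A was higher in all of them while EPAS1 differed in sign between them. HIF1A, the HIF-1 alpha subunit (ENSG00000100644, GRCh38 chromosome 14, 61695513 to 61748259, plus strand), was at 98.8 and 116 FPKM in BLU667, 117 and 115 in BR8, 90.7 and 86.8 in BR10, 99.3 and 98.6 in BR16, and 53.8 and 74.8 in DMSO. Every drug-exposed library was above both DMSO libraries. Its changes were 0.75 ± 0.15, adjusted p = 0.00241 in BLU667 and 0.66 ± 0.12, adjusted p = 0.00235 in the adapted colonies against DMSO, and adapted colonies and BLU667 were not told apart (-0.09 ± 0.12, adjusted p = 0.526). EPAS1, the HIF-2 alpha subunit (ENSG00000116016, GRCh38 chromosome 2, 46293667 to 46386703, plus strand), was at 21 and 22.3 FPKM in BLU667, 7.21 and 6.77 in BR8, 14.5 and 15.6 in BR10, 18.6 and 21.5 in BR16, and 11 and 8.11 in DMSO. It rose 2.27-fold in BLU667 (1.12 ± 0.13, adjusted p = 0.00015), and the colonies split, with BR10 (0.62 ± 0.13, adjusted p = 0.00689) and BR16 (1.01 ± 0.13, adjusted p = 0.000461) above DMSO and BR8 below it (-0.39 ± 0.13, adjusted p = 0.0379). The BR8 call was lost without either library of BLU667, BR8 or BR10 or without DMSO replicate 1 (adjusted p = 0.0517 to 0.17), with only BR8 and DMSO in the fit (adjusted p = 0.14) and with quantile normalization (adjusted p = 0.0743), and the call for the adapted colonies together (0.41 ± 0.11, adjusted p = 0.0136) without DMSO replicate 2 (0.21, adjusted p = 0.0954). EPAS1 was below HIF1A per length in every library, at 5.57% to 17.9% of their summed FPKM.

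Of the prolyl hydroxylases, EGLN1, the main oxygen sensor for HIF in most cells, was at 21.8 and 20.6 FPKM in BLU667, 25.7 and 23.4 in BR8, 24.6 and 23.8 in BR10, 24.9 and 26.7 in BR16, and 25.4 and 31.4 in DMSO. It was lower in BLU667 than in DMSO (-0.40 ± 0.11, adjusted p = 0.0115). That call was lost without BLU667 replicate 2 (-0.36), with quantile normalization (-0.21, adjusted p = 0.125) and with only these groups in the fit (-0.40, adjusted p = 0.0737). The adapted colonies were not called against DMSO (-0.18 ± 0.09, adjusted p = 0.122). They were called lower with the GC trend removed (-0.25, adjusted p = 0.017) and without DMSO replicate 1 (-0.33). EGLN3, itself a strongly hypoxia-inducible gene in many cells, stayed below the filter at 0.0695 and 0.156 FPKM in BLU667, 0.0618 and 0.0565 in BR8, 0.193 and 0.162 in BR10, 0.201 and 0.337 in BR16, and 0.286 and 0.172 in DMSO. It was therefore not tested.

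**Figure D4:**
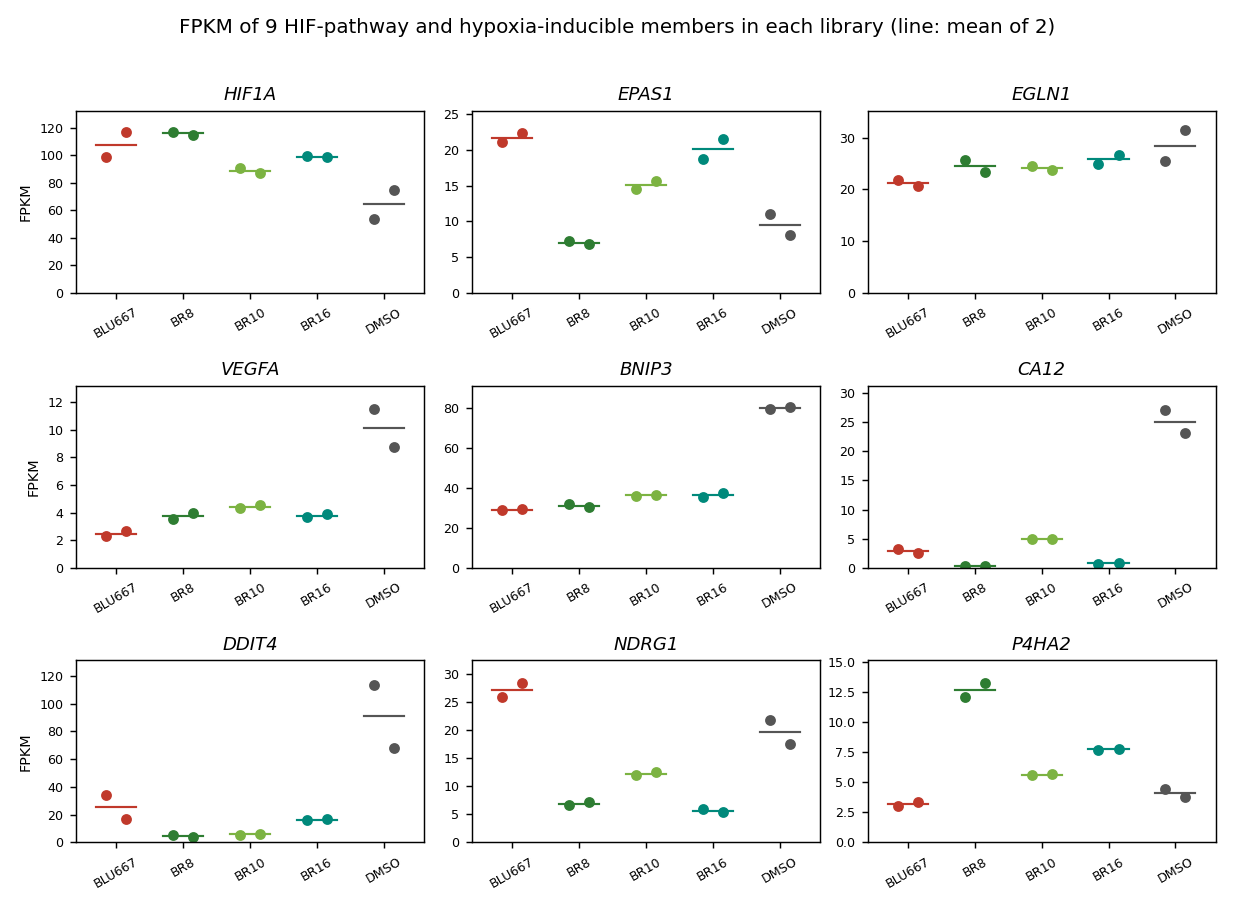
FPKM of 9 members of the HIF pathway and its induced genes (vertical axis, each panel from 0 on its own scale) in each library by group, with lines at the mean of 2. HIF1A is at 98.8 FPKM and 116 FPKM in BLU667 and at 53.8 and 74.8 FPKM in DMSO, while VEGFA, BNIP3, CA12 and DDIT4 are highest in DMSO.

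Among the 11 other hypoxia-inducible genes, 9 were tested, and in BLU667 6 of them fell and 2 rose. CA12, a membrane carbonic anhydrase that handles acid at the cell surface, was at 3.2 and 2.51 FPKM in BLU667, 0.280 and 0.357 in BR8, 4.96 and 4.98 in BR10, 0.682 and 0.809 in BR16, and 27.1 and 23.1 in DMSO. It had the largest fall of any member in the adapted colonies against DMSO (-3.44 ± 0.09, adjusted p = 1.29e-07), with a mean 78.8-fold lower in BR8 and 5.05-fold lower in BR10 than in DMSO. In BLU667 the change was -2.76 ± 0.12, adjusted p = 4.85e-07. CA9, the related anhydrase that is a standard hypoxia marker, had 2 and 4 reads in the BLU667 libraries and 0 in all others, where 3 reads would have amounted to 0.0792 to 0.114 FPKM. Of the CA9 exon bases 38.5% are shared with ARHGEF39, which makes the CA9 level uncertain. DDIT4, which encodes the mTORC1 inhibitor REDD1, was at 34.1 and 16.6 FPKM in BLU667, 5.31 and 3.69 in BR8, 5.23 and 6.32 in BR10, 16 and 16.8 in BR16, and 114 and 68.2 in DMSO. All drug-exposed libraries were below the DMSO pair, with changes of -1.84 ± 0.34, adjusted p = 0.00165 in BLU667, -3.37 ± 0.27, adjusted p = 2.85e-05 in the adapted colonies against DMSO and -1.53 ± 0.27, adjusted p = 0.00147 against BLU667, where BLU667 and BR16 libraries overlapped. Its exons share 41.16% of their bases with DDIT4-AS1, so reads of the antisense gene cannot be told apart.

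VEGFA, the angiogenic growth factor, was at 2.32 and 2.64 FPKM in BLU667, 3.52 and 4.01 in BR8, 4.3 and 4.56 in BR10, 3.66 and 3.87 in BR16, and 11.6 and 8.76 in DMSO. It fell in BLU667 (-1.67 ± 0.12, adjusted p = 1.09e-05) and was lower in the adapted colonies than in DMSO (-1.15 ± 0.10, adjusted p = 4.49e-05), with no overlap of the adapted libraries with BLU667 or DMSO. BNIP3, a mitophagy receptor, was at 28.7 and 29.3 FPKM in BLU667, 31.9 and 30.4 in BR8, 36.1 and 36.6 in BR10, 35.3 and 37.5 in BR16, and 79.5 and 80.3 in DMSO. The BLU667 and adapted libraries lay close together and far below DMSO, with changes of -1.43 ± 0.07, adjusted p = 1.07e-06 in BLU667 and -1.19 ± 0.06, adjusted p = 1.58e-06 in the adapted colonies against DMSO. NDRG1, a stress-responsive gene used as a hypoxia marker, moved the other way in BLU667. It was at 25.9 and 28.3 FPKM in BLU667, 6.71 and 7.17 in BR8, 12 and 12.5 in BR10, 5.91 and 5.38 in BR16, and 21.8 and 17.6 in DMSO. BLU667 was slightly above DMSO (0.45 ± 0.11, adjusted p = 0.00704), which was not called with only these groups in the fit (0.45, adjusted p = 0.0586). The adapted colonies were below both groups (-1.22 ± 0.09, adjusted p = 1.51e-05 against DMSO, -1.66 ± 0.09, adjusted p = 1.84e-06 against BLU667).

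The collagen prolyl hydroxylase subunits differed from each other. P4HA2 was at 3.06 and 3.4 FPKM in BLU667, 12.1 and 13.2 in BR8, 5.57 and 5.64 in BR10, 7.68 and 7.76 in BR16, and 4.45 and 3.8 in DMSO. Every adapted library was above all parental ones, by 0.85 ± 0.07, adjusted p = 3.97e-05 against DMSO and 1.13 ± 0.07, adjusted p = 5.39e-06 against BLU667. In BLU667 P4HA2 was called slightly lower than in DMSO. That call was lost with only these groups in the fit (-0.28, adjusted p = 0.154) and with median-of-ratios scaling (-0.24, adjusted p = 0.0526). It was also lost without DMSO replicate 1 (-0.18) or BLU667 replicate 1 (-0.22). BR8, the colony with the highest P4HA2, also had the highest summed fibroblast markers given above, and whether these are linked was not tested. P4HA1 fell in BLU667 (-0.54 ± 0.11, adjusted p = 0.00254) and was not called in the adapted colonies against DMSO (0.07 ± 0.09, adjusted p = 0.55). ADM, the gene of the peptide adrenomedullin, was at 4.14 and 4.15 FPKM in BLU667, 3.56 and 2.01 in BR8, 4.07 and 4.85 in BR10, 4.83 and 5.47 in BR16, and 2.44 and 1.47 in DMSO. It was called higher in BLU667 (0.82 ± 0.21, adjusted p = 0.00998) and in the adapted colonies against DMSO (0.78 ± 0.17, adjusted p = 0.00656), and both calls were lost without DMSO replicate 2 (0.58, adjusted p = 0.0642 in BLU667 and 0.54, adjusted p = 0.0675 in the adapted colonies). The histone demethylase gene KDM3A was not called in BLU667 (-0.17 ± 0.09, adjusted p = 0.153), except with the GC trend removed (-0.24, adjusted p = 0.0164). Its small fall in the adapted colonies against DMSO was called (-0.24 ± 0.08, adjusted p = 0.0286). That call was lost without a filter (adjusted p = 0.054), with quantile normalization (-0.19, adjusted p = 0.0839) and with colony means as replicates (adjusted p = 0.398). It was also lost without DMSO replicate 2 (-0.15), BR8 replicate 1 (-0.24), BR10 replicate 2 (-0.23) or either BR16 library (-0.23 and -0.25). ANKRD37 stayed near the filter at 0.432 to 1.05 FPKM and was not tested, and 35.23% of its exon bases are shared with UFSP2.

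The colonies differed from each other in many of these genes, at a share near that of all genes. A moderated F test over BR8, BR10 and BR16 called 22 of 35 members (62.9%), against 58.1% of all tested genes. Against DMSO, BR8 had 2 members higher and 23 lower, where 24% of all genes were higher and 27.3% lower. BR10 had 6 higher and 19 lower, with 19.2% and 21.5% of all genes. BR16 had 6 higher and 20 lower, with 21.9% and 23.6% of all genes. In all of the colonies SLC2A1, HK1, HK2, GPI, GAPDH, ENO1, PFKFB4, LDHA, CA12, VEGFA, BNIP3, NDRG1 and DDIT4 were called lower than in DMSO and HIF1A and P4HA2 higher. Of these, the HK1 calls were lost without BR10 replicate 1 in BR10 (adjusted p = 0.0544) and without either BR16 library in BR16 (0.058 and 0.103). In BR10 the HIF1A call was lost without DMSO replicate 1 or any library of BR10 or BR16 (0.0523 to 0.135), and the P4HA2 call without either BR10 library (0.0583 and 0.0592). With only a colony and DMSO in the fit, the HK1 and HIF1A calls in BR10 and BR16 and the P4HA2 call in BR10 were lost (adjusted p = 0.0614 to 0.132). BR8 had the lowest SLC2A1, HK1, HK2, GPI and ENO2 of the colonies. For ENO2 the change was -0.99 ± 0.15, adjusted p = 0.00103 in BR8, -0.29 ± 0.15, adjusted p = 0.17 in BR10 and -0.23 ± 0.15, adjusted p = 0.27 in BR16. BR10 alone had SLC16A1 called higher than DMSO (0.35 ± 0.10, adjusted p = 0.0259), a call lost without DMSO replicate 1 (0.23, adjusted p = 0.0908) or either BR10 library (0.0974 and 0.102), and CA12 stood highest there. BR16 alone had SLC16A3 within the range of DMSO, LDHB called lower (-0.86 ± 0.20, adjusted p = 0.00846) and PFKFB3 called higher (0.75 ± 0.12, adjusted p = 0.00121). With only BR16 and DMSO in the fit, the LDHB call was lost (adjusted p = 0.0614). The F test called the differences among colonies in all of SLC16A1, CA12, SLC16A3, LDHB and PFKFB3.

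**Figure D5:**
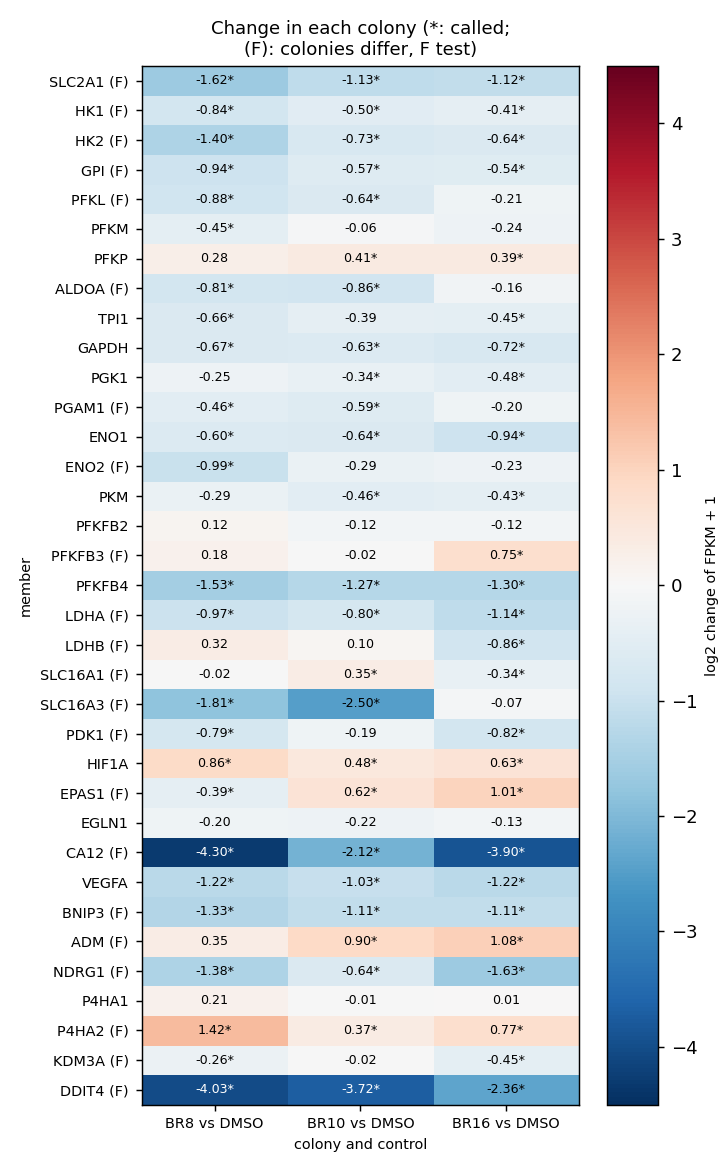
Log2 change of FPKM + 1 against DMSO (colour and printed value) of the 35 tested members in each adapted colony. An asterisk marks a call at an adjusted p below 0.05 and (F) a member whose colonies differed in the F test, which holds for 22 members. CA12 and DDIT4 are the darkest rows, and SLC16A3 is pale in BR16 only.

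Other genes of the same pathways came from lists made beside the members. Their counts stand against 29% higher and 31.2% lower over all genes in BLU667, and 22.9% and 26.3% in the adapted colonies against DMSO. Of 24 other glycolytic isozymes and hexose carriers 11 were tested, of which 5 were higher and 3 lower in BLU667 than in DMSO, with 4 higher and 2 lower in the adapted colonies against DMSO. HKDC1, a further hexokinase-domain gene, was at 78.6 and 87.7 FPKM in BLU667, 37.3 to 71.5 FPKM in the adapted libraries and 20.4 and 26.4 FPKM in DMSO. It thus rose where HK1 and HK2 fell (1.79 ± 0.12, adjusted p = 6.34e-06 in BLU667, 1.05 ± 0.10, adjusted p = 6.48e-05 in the adapted colonies against DMSO). SLC2A3, the carrier GLUT3, was at 0.249 and 0.271 FPKM in BLU667 and 1.47 and 1.65 FPKM in DMSO, and had 0 reads in all 6 adapted libraries, where 3 reads would have amounted to 0.0215 to 0.0301 FPKM. Of 16 HIF pathway regulators 13 were tested, with 7 higher and 3 lower in BLU667 and 3 higher and 2 lower in the adapted colonies against DMSO. CITED2, which competes with HIF-1 alpha for the coactivators CBP and p300, rose most, at 191 to 210.1 FPKM in BLU667, 124 to 154 FPKM in the adapted libraries and 32.2 to 34.4 FPKM in DMSO (2.55 ± 0.09, adjusted p = 1.78e-07 in BLU667, 1.97 ± 0.07, adjusted p = 3.81e-07 in the adapted colonies against DMSO).

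Of 38 further hypoxia-inducible genes 32 were tested. In BLU667 against DMSO 6 were higher and 15 lower, with a median log2 change of -0.29. In the adapted colonies against DMSO 7 were higher and 10 lower (median -0.04). Against BLU667 16 were higher and 6 lower, where 32.4% of all genes were higher and 28.7% lower. STC1, stanniocalcin, was at 1.34 to 1.37 FPKM in BLU667, 0.274 to 2.45 FPKM in the adapted libraries and 13.1 to 17.1 FPKM in DMSO (-2.76 ± 0.14, adjusted p = 1.32e-06 in BLU667, -3.05 ± 0.11, adjusted p = 4.73e-07 in the adapted colonies). TFRC, the transferrin receptor, fell in BLU667 (-2.36 ± 0.12, adjusted p = 1.18e-06) and was nearer to DMSO in the adapted colonies, though still lower (-0.33 ± 0.10, adjusted p = 0.02). IGFBP3, an insulin-like growth factor binding protein, fell in BLU667 (-0.80 ± 0.20, adjusted p = 0.00833) and was higher in the adapted colonies than in DMSO (1.43 ± 0.16, adjusted p = 0.000181), where BR10 stayed near DMSO, at 263 to 301 FPKM in BR10 against 249.7 to 253 FPKM in DMSO.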

How the data were processed

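The authors' deposited table gives FPKM per gene for the 10 libraries, made from total RNA with GlobinClear depletion and a non-directional NEB kit, per the labels' protocols. Per the submitters' processing notes, CASAVA, STAR 2.5, HTSeq 0.6.1, DESeq2 (version given as 2) and GRCh38 (hg38) were used; no annotation release is stated, but 58724 of 58735 genes have the same start and end in GENCODE 29. All columns were mapped to samples. FPKM times gene length, divided by what 1 read is worth in that library, gave whole reads in 100% of values (tolerance 0.05).

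The test was limma 3.58.1 (R 4.3.3) with a trended variance on log2(FPKM + 1) of the deposited values, for genes that reached 1 FPKM in 2 or more libraries. A single model held all 5 groups and left 5 residual degrees of freedom; the two-sided p-values were Benjamini-Hochberg adjusted over all 13927 genes and called below 0.05. For genes of low FPKM the added 1 shrinks the change. The adapted colonies entered as the mean of 3 group means, so their SE does not cover variation between colonies. Members, their 6 companion lists (114 genes) and the marker lists were chosen with earlier results of these data known. Values per library are given for up to 4 members of each role with the largest log2 changes, and for the HIF and EGLN genes; others are named for departing from these after their values were seen. From companion lists, up to 3 called genes with the largest changes per comparison were eligible.

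Alternatives were pseudocounts of 0.1 and 0.25, a minimum of 5 FPKM or none, quantile normalization, median-of-ratios scaling, a replicate block, no variance trend, only the groups compared, each library left out, colony means, voom on the recovered reads and GC-corrected values (a loess curve with span 0.3 subtracted per library). On the reads, voom called 4414 of all genes higher and 4222 lower in BLU667 against DMSO, among them 6 and 25 members. Promoters come from RefSeq (GRCh38.p14). Figures were drawn with matplotlib 3.10.9 in Python 3.11.15. Genes of the companion and marker lists that the text does not name are not reported here one by one.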

Additional observations from a re-analysis of the deposited data

Results flagged for a closer look

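In 22 members the changes of BR8, BR10 and BR16 against DMSO differed from each other by a moderated F test (limma, adjusted over all tested genes), against 58.1% of all genes. All colonies share the same DMSO libraries, so the test bears on the colonies alone. The adjusted p was 2.85e-05 for CA12, 0.000231 for P4HA2, 0.000323 for EPAS1, 0.000546 for NDRG1, 0.000582 for SLC16A3 and 0.000827 for HK2. It was 0.00226 for PDK1, 0.00238 for SLC16A1, 0.00244 for PFKFB3, 0.00331 for LDHB, 0.00584 for ALDOA, 0.0065 for ENO2, 0.0072 for DDIT4 and 0.00722 for PFKL. It was 0.0124 for KDM3A, 0.0208 for LDHA, 0.0224 for SLC2A1, 0.0244 for GPI, 0.0248 for HK1, 0.0275 for PGAM1, 0.0374 for BNIP3 and 0.0385 for ADM. In EPAS1, SLC16A1, LDHB and PFKFB3 (-0.02 in BR10) the colonies' changes had different signs. SLC16A3 had a log2 change against DMSO of -1.81 in BR8, -2.50 in BR10 and -0.07 in BR16, and CA12 one of -4.30 in BR8, -2.12 in BR10 and -3.90 in BR16. The differences of expression with GC content ran in opposite directions in BR8 and BR16. With the GC trend removed, 188 recomputed limma results for single members over all comparisons kept their direction and side of the threshold. In 16 a call was gained, in 1 it was lost, and 5 that were not called changed sign. Those gained included PFKP, higher in BR8 (0.47, adjusted p = 0.00325), and PFKL, lower in BR16 (-0.44, adjusted p = 0.000615). The call lost was PFKP in BR16 (0.24, adjusted p = 0.0626).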

How the results depend on the processing

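Of 4491 recomputed values for single members, 4199 kept their direction and their side of the threshold, 188 lost a call, 62 gained one, 42 that were not called changed sign, and 0 calls changed direction. With colony means as 3 replicates, the adapted colonies against DMSO had 0 members higher and 10 lower, and against BLU667 3 lower. This setting has fewer samples, and calls over all genes also dropped, to 818 higher and 722 lower against DMSO. Without a filter BR10 had 3 members higher than DMSO (2495 of 32318 genes), with only the groups compared 1 (1633 of 13927), against 2680 of 13927 genes as reported. With the GC trend removed BR8 had 5 members higher (3356 of 13923 genes, against 3346 of 13927). Leaving out each library in turn gave 2 to 6 members higher in the adapted colonies against DMSO, 1 to 6 higher in BR10 and 12 to 25 differing among colonies, and the lowest of these came without DMSO replicate 2, BR10 replicate 2 and BR16 replicate 2. Each of these fits left a group with 1 library. Calls higher than DMSO over all genes dropped too, but by a smaller share than among members. This held in the adapted colonies without DMSO replicate 2, where the drop over all genes was slight, and in BR10 without BR10 replicate 2. The causes were not tested. With a replicate block, 6 members were higher and 25 lower in BLU667, and 6 and 23 in the adapted colonies against DMSO. Against BLU667 20 were higher and 8 lower, and in BR10 against DMSO 5 and 19. Of all 13927 genes, this setting called 3921 higher and 4221 lower in BLU667, and 3019 and 3482 in the adapted colonies against DMSO. Against BLU667 it called 4375 and 3890, and in BR10 2499 and 2786. The replicate numbers did not pair the samples: correlations of replicate differences between groups ran from -0.163 to 0.109. A crossed pairing of BR10 and DMSO, chosen after seeing the data, gave 6 members higher and 19 lower, against 2661 and 3047 of all genes. Of the calls, 24 of 31 in BLU667, 10 of 29 in the adapted colonies against DMSO and 17 of 29 against BLU667 held under every alternative. With colony means set aside, 21 of 29 in the adapted colonies against DMSO and 23 of 29 against BLU667 held. The same was not counted over all genes. CA9, EGLN3, ALDOC and ANKRD37 had few reads, fell below the 1 FPKM filter and were tested only without it.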

Other observations

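Lists of pathways that neighbour glycolysis had 60% to 75% of their tested genes called in BLU667 against DMSO and 50% to 62.5% in the adapted colonies against DMSO, where 60.2% and 49.2% of all tested genes were called. All 8 genes of the pentose phosphate pathway, which draws on glucose 6-phosphate to make NADPH and ribose, were tested. In BLU667 2 were higher and 4 lower than in DMSO, and in the adapted colonies 3 were higher and 2 lower than in DMSO. Against BLU667 the adapted colonies had 5 higher and 3 lower, where 32.4% of all genes were higher and 28.7% lower. RPIA, ribose 5-phosphate isomerase, was at 5.42 to 6.12 FPKM in BLU667, 9.70 to 12.6 FPKM in the adapted libraries and 16.9 to 17.2 FPKM in DMSO (-1.42 ± 0.09, adjusted p = 5.68e-06 in BLU667, -0.58 ± 0.08, adjusted p = 0.000447 in the adapted colonies against DMSO). PGD was higher in the adapted colonies than in DMSO (0.54 ± 0.07, adjusted p = 0.000456) and was not called in BLU667 (-0.19 ± 0.09, adjusted p = 0.0945).

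Of 17 genes for pyruvate entry into mitochondria, 16 were tested, with 6 higher and 6 lower in BLU667 and 5 higher and 5 lower in the adapted colonies against DMSO. MPC2, a subunit of the mitochondrial pyruvate carrier, was at 61.7 to 71.1 FPKM in BLU667, 24.9 to 35.4 FPKM in the adapted libraries and 23.2 to 26.2 FPKM in DMSO (1.39 ± 0.10, adjusted p = 1.01e-05 in BLU667, -1.10 ± 0.08, adjusted p = 1.21e-05 in the adapted colonies against BLU667). SLC16A4, a carrier of the monocarboxylate family, was at 12.3 to 13.2 FPKM in BLU667, 0.675 to 1.17 FPKM in BR8 and BR10, 15.3 to 15.6 FPKM in BR16 and 2.44 to 2.98 FPKM in DMSO. Of 11 glycogen genes 10 were tested, of which 1 was higher and 5 lower in BLU667 and 0 higher and 5 lower in the adapted colonies against DMSO. GBE1, the glycogen branching enzyme, was lower in both (-0.66 ± 0.12, adjusted p = 0.00154 in BLU667, -0.60 ± 0.10, adjusted p = 0.00129 in the adapted colonies).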
